A study of Mus musculus with 8 samples.

Results

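Endothelial cells (ECs) of spontaneous mammary tumours were compared 3 h after an intratumoural injection of cGAMP or of PBS. A cell was taken as an EC when it had at least 1 unique molecular identifier (UMI, a counted transcript molecule) of Pecam1, the gene of the CD31 protein used in the sort, and UMIs of fewer than 2 of 6 genes of other cells. Those genes were Rgs5 and Pdgfrb of mural cells, Epcam and Krt8 of epithelium, and Ptprc and Tyrobp of leukocytes. By this rule 2523 of the 3236 deposited cells from spontaneous tumours were ECs, of which 894 and 547 came from the PBS libraries and 511 and 571 from the cGAMP libraries. Across the whole series 6371 of 8204 cells met the rule.

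The tumours arose in female MMTV-PyMT mice, in which the promoter of the mouse mammary tumour virus drives the polyoma middle T oncogene in mammary epithelium. Treatment began at 9 weeks of age in the methods, and the labels give the age as adult. The labels name the strain c57bl/6 and the methods an FVB/N transgenic line. Cells of these tumours were implanted in FVB mice, which the paper calls syngeneic. The label thus conflicts with the paper's own account, which gives FVB. A tumour received 14 µg of cGAMP in 70 µl or 70 µl of PBS, and live CD45- CD31+ cells were sorted for single-cell RNA sequencing. Each group had 2 mice and 2 libraries, numbered here as replicates 1 and 2. The implanted tumours used for comparison in places were grown from cultured MMTV-PyMT tumour cells. These cells were placed with Matrigel in the mammary fat pad of female mice. By the methods these hosts were FVB mice no older than 9 weeks at implantation. The injections and times were the same, with 2 libraries per group. The ECs of those tumours belong to the host, whereas every cell of a spontaneous tumour carries the transgene.

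cGAMP is a cyclic dinucleotide that binds STING, an adaptor of the endoplasmic reticulum. STING engages the kinase TBK1, which phosphorylates the transcription factor IRF3 and turns on type I interferon genes, and it can also engage NF-kB. Secreted interferon acts through its receptor and Janus kinases on transcription factors that bind the interferon-stimulated response element (ISRE) and raise antiviral, antigen presentation and chemokine genes in the same and in neighbouring cells. Interferon gamma, which has a receptor of its own, induces the class II transactivator Ciita. The question of the comparison was what ECs of a spontaneous tumour express in the first hours after such an injection.

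The ISRE core was searched as GAAA, any 2 bases and GAAA on both strands in the RefSeq promoter windows of build GRCm38.p6, each from 250 bases before to 50 bases after a gene's start. Of the genes tested below, 8107 had a window, and 3.98% of these held the core (323 genes), as did 3.44% of all 32851 windows of that length in the table. Among genes raised at least 2-fold by cGAMP with a window, 62 of 198 held it (31.3%), against 4 of 86 lowered genes (4.65%). The promoters of 4 raised genes are shown because they carry the motifs next to the start of genes with large changes. Capitals mark every ISRE core and, in Cxcl10, also the NF-kB consensus.
Ifit3, chr19:34583279-34583578, plus strand: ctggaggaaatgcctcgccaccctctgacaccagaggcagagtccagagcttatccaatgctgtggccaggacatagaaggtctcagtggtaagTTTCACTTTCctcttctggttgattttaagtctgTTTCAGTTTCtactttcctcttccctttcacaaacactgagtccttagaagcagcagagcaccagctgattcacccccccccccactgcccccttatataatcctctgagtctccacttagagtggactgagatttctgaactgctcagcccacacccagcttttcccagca
Isg15, chr4:156200769-156201068, minus strand: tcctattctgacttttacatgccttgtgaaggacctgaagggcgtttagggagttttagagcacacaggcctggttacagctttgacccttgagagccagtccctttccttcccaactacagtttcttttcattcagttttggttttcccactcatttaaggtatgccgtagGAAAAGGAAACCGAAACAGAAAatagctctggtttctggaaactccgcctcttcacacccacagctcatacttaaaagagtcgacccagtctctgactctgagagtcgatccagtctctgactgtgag
Cxcl10, chr5:92348840-92349139, minus strand: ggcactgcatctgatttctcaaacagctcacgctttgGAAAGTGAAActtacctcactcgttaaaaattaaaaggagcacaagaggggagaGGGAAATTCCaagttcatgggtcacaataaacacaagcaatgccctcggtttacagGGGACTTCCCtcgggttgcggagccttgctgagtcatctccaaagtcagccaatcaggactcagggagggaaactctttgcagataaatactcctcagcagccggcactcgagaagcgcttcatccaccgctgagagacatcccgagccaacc
Gbp2, chr3:142620413-142620712, plus strand: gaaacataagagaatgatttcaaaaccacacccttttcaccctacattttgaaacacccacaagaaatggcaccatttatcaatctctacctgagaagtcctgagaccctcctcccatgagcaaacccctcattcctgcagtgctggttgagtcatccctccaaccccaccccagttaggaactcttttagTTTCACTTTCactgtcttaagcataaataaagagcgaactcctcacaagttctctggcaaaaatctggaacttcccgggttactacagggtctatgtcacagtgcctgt
Ifit3 had 2 cores, both on the opposite strand, whereas the 3 cores of Isg15 overlapped each other. In Cxcl10 the core lay upstream of 2 NF-kB matches. The windows of Irf7 and Cxcl9 held no match to these letters, and no window was at hand for Ccl5, Zbp1, Mx1, Usp18 and Ifi27. By list, the core was present in 18 of 32 windows of antiviral effectors, in 9 of 10 of interferon-inducible GTPases, in 5 of 16 of MHC class I genes and in 1 of 9 of chemokines. The NF-kB consensus was more frequent in the last pair of lists, with 7 of 16 MHC class I windows and 4 of 9 chemokine windows, beside 6.46% of all genes tested with a window. The NF-kB consensus was in 25 of 198 raised genes (12.6%) and in 4.51% of all windows. A match to the letters is a description of these windows and not a bound site.

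The ECs gave 9588806 and 6393720 UMIs in the PBS libraries and 7059822 and 8183651 in the cGAMP libraries, with medians per EC of 9238, 10032, 11801 and 13298 UMIs. Levels are given in CPM, the UMIs of a gene per 1000000 UMIs of a cell averaged over the ECs of a library. The summed level of 9 endothelial markers was 6461 and 6682 CPM after PBS and 6741 and 6965 CPM after cGAMP, and Pecam1 itself was at 1209 and 1212 against 1100.0 and 1146 CPM. Summed markers of other cells were far lower. Mural markers reached 119 to 172 CPM in the 4 libraries, immune markers 11.4 to 28.0, fibroblast markers 4.78 to 26.3 and erythroid markers 1.41 to 41.4, while epithelial markers stood at 752 to 976 CPM. Epcam had a UMI in 12.98% to 17.0% of ECs. Csn3, a milk casein gene chosen after its values were seen, had a UMI in 78.8% to 91.2% of ECs in the 4 libraries, and the source of this RNA was not tested. Of the epithelial, immune, fibroblast, erythroid and lymphatic lists 0 genes were called in limma, with 0, 1, 2, 0 and 2 genes at an unadjusted p under 0.05. Of 6 tested mural markers 1 rose and 1 fell. Abcc9 went from 74.8 and 75.8 to 54.1 and 55.6 CPM, a call lost with median-of-ratios scaling and without any one of the 4 libraries (adjusted p up to 0.121). Rgs5 rose from 27.2 and 27.7 to 63.1 and 47.2 CPM (log2 difference 0.97 ± 0.16 SE, adjusted p = 0.0034), and its separate part in other results was not tested. A run on ECs with none of the 6 genes of other cells, Rgs5 included, is given at the end. The share of cells that met the EC rule was 86.0% and 81.2% after PBS and 69.0% and 73.1% after cGAMP. A difference in a mean over ECs can come from more or fewer cells of a subset or from a different level per cell, and these cannot be told apart from the mean alone.

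The test was limma on log2(CPM + 1) with all 8 libraries in the fit, and a gene was called at a Benjamini-Hochberg adjusted p under 0.05 over 10335 genes. Errors of log2 differences are standard errors of this fit. cGAMP changed 1275 genes (12.3% of those tested), of which 493 were called higher (4.77%) and 782 lower (7.57%). In every called gene the 2 libraries of one treatment lay on one side of both libraries of the other. The calls rest on the same libraries, so this order describes them and does not test them further. Its share over all genes tested was not counted. The raised genes moved further: 259 rose and 118 fell at least 2-fold, and 70 rose and 1 fell at least 8-fold. With 2 mice per group the count leaned on each library, with 593 genes called without PBS replicate 1, 614 without PBS replicate 2, 516 without cGAMP replicate 1 and 660 without cGAMP replicate 2. The median log2 difference of all genes was -0.11, and scaling by the median of ratios moved it to 0.0011. With that scaling 1006 genes were called, and the share called higher was 67.8% instead of 38.7%. Counts of lists and named calls that were lost or gained with that scaling are given beside them.

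**Figure D1:**
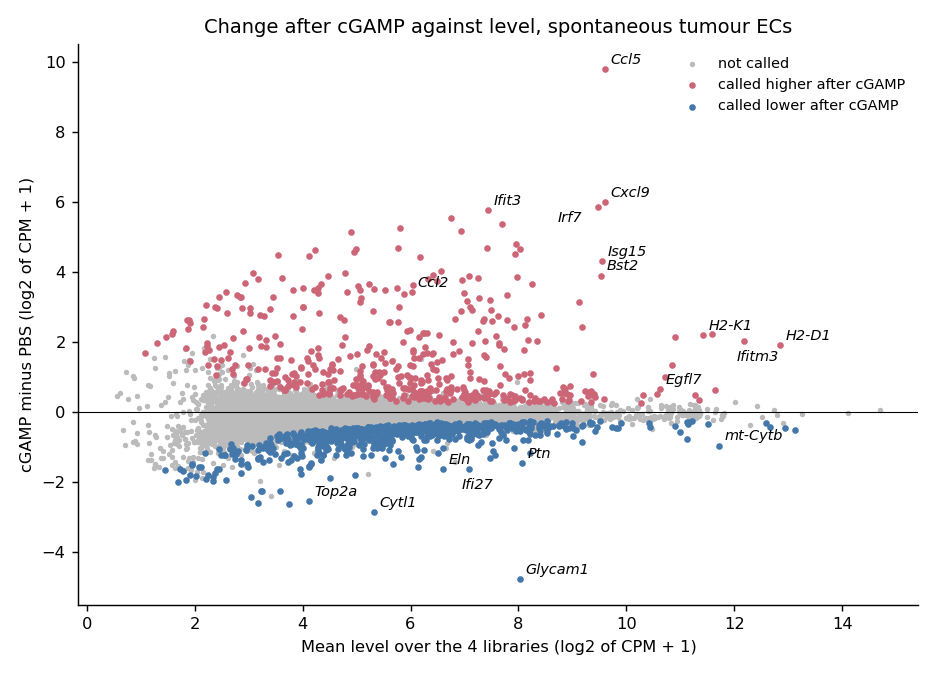
Each point is 1 of 10335 genes, with the mean log2(CPM + 1) of the 4 libraries on the horizontal axis and the log2 difference cGAMP minus PBS on the vertical axis, coloured by call. Of the genes that moved at least 8-fold, 70 lie above 0 and 1 lies below.

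Of the gene lists, that of antiviral effectors held the most raised genes. The lists were chosen with earlier results of these data known. Counts by list, here and below, therefore describe the data and do not test them. Of 41 tested members of a list of interferon-induced antiviral genes, 39 rose and 1 fell, with a median log2 difference of 3.28 against -0.11 over all genes tested. The calls of 38 of them held without any of the 4 spontaneous libraries. Ifit3, which binds viral RNA together with its relatives, stood at 5.45 and 5.04 CPM after PBS and at 309 and 367 CPM after cGAMP (log2 difference 5.76 ± 0.22, adjusted p = 1.7e-07). Ifit1 went from 6.71 and 11.6 to 383 and 428 CPM (5.36 ± 0.21, adjusted p = 2.5e-07). Ifit3b moved by 5.56 ± 0.26, and since Ifit3 and Ifit3b are near-identical copies, the split of reads between them is uncertain. The same holds for the pair Apol9a and Apol9b, which rose by 4.65 ± 0.35 and 5.14 ± 0.27.

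Oasl1, which restrains translation of Irf7 mRNA, went from 1.69 and 2.01 to 107 and 108 CPM (5.25 ± 0.16, adjusted p = 4.9e-08). Rsad2, the antiviral enzyme viperin, rose from 14.2 and 24.98 to 489 and 509 CPM. Mx1 rose from 0.530 and 0.446 to 29.3 and 34.8 CPM. In each of these genes the cGAMP libraries lay far above the PBS libraries. Oas1g, Oas3 and Trim30d had no UMI in either PBS library and between 61 and 196 UMIs in each cGAMP library. Bst2, or tetherin, which holds budding virus at the cell surface, rose from 80.7 and 104 to 1418 and 1344 CPM. Ifitm3 started high, at 1802 and 1808 CPM, and reached 7702 and 7194 CPM. Ifitm2, from the same family, showed a small change of 0.26 ± 0.08, and its call was lost without PBS replicate 1, PBS replicate 2 or cGAMP replicate 1, with an adjusted p of up to 0.264.

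The member that fell was Ifi27, at 207 and 199 CPM after PBS and 67.4 and 62.2 CPM after cGAMP (log2 difference -1.63 ± 0.10, adjusted p = 2.3e-06). Its neighbour Ifi27l2a rose from 19.0 and 20.2 to 420.1 and 519.7 CPM (4.51 ± 0.13, adjusted p = 4.9e-08). Both encode small membrane proteins of the interferon-induced IFI27 family. In the GENCODE annotation of the same genome Ifi27 is at chr12:103434211-103440239 on the plus strand and Ifi27l2a at chr12:103442167-103443680 on the minus strand, with 1927 bases between them. In RefSeq the span of Ifi27l2a covers Ifi27, and which annotation assigned the reads is not given in the sources used here.

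Conjugation and GTPase genes rose in the same libraries. The genes for ISG15 and FAT10 conjugation were raised in 9 of 9 cases with a median of 2.67, and each of these calls held without any of the 4 spontaneous libraries. Isg15, a ubiquitin-like protein joined to newly made proteins, rose from 63.0 and 79.4 to 1374 and 1470 CPM. Usp18, which removes ISG15 and damps the interferon receptor, rose from 6.95 and 12.9 to 161 and 155 CPM. Interferon-inducible GTPases, which attack the membranes around intracellular parasites, rose in 16 of 16 cases, with a median of 3.18 and a range from 1.91 to 3.88. Iigp1 reached 976 and 1025 CPM from 114 and 111. Gbp2, whose promoter is printed above, rose from 50.1 and 37.2 to 559 and 563 CPM, and Igtp from 15.5 and 16.8 to 249.6 and 255 CPM. Tgtp1 and Tgtp2, again near-identical copies, rose by 2.99 ± 0.24 and 3.88 ± 0.18.

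**Figure D2:**
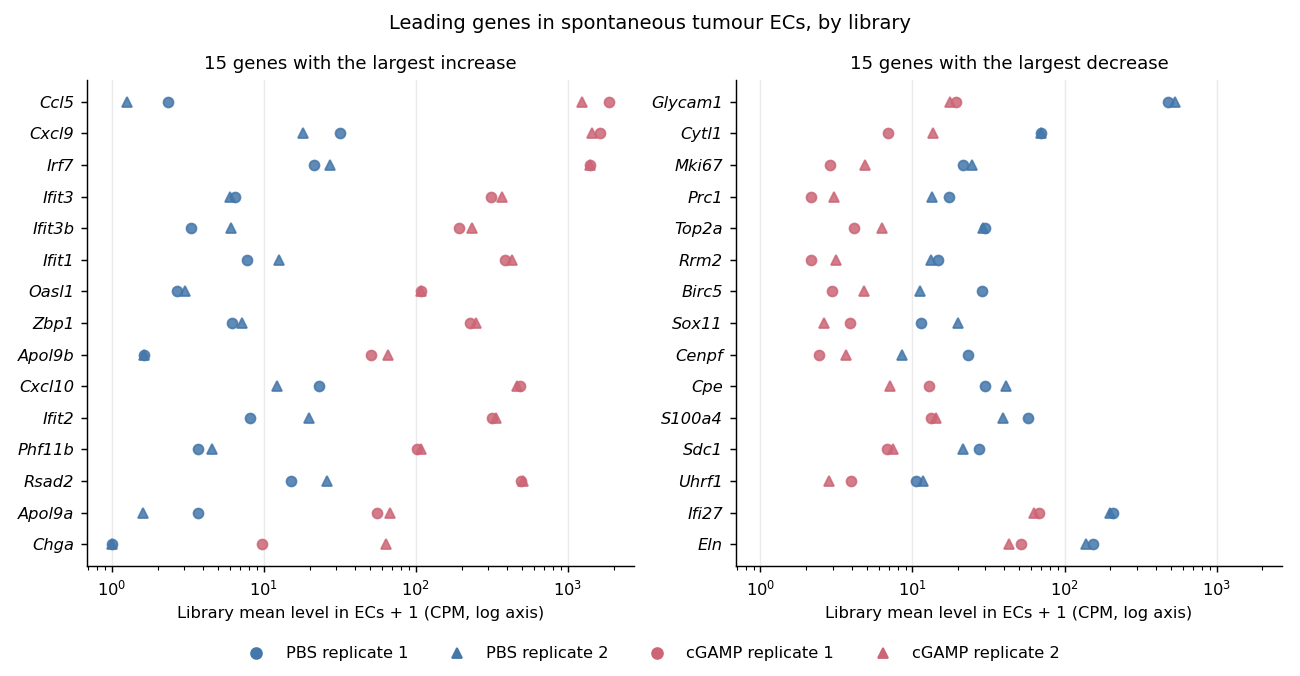
Mean level plus 1, in CPM on a log axis, in each spontaneous library for the 15 genes with the largest rise (left) and the 15 with the largest fall (right), blue for PBS and red for cGAMP. Ccl5 lies at 1861 and 1232 CPM after cGAMP. Only genes whose blue and red points do not overlap in range were eligible for the figure.

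Sensors of nucleic acids rose, while the genes of STING and of the cGAMP synthase were not called. In the sensing list of 17 tested genes 12 rose and 0 fell, with a median of 1.41, and 10 of the calls held without any of the 4 spontaneous libraries. Zbp1, a sensor of Z-form nucleic acid that can trigger necroptosis, rose from 5.14 and 6.15 to 227 and 248 CPM (5.17 ± 0.23, adjusted p = 3.5e-07). The RNA sensor gene Ifih1 (MDA5) rose from 13.5 and 15.6 to 96.6 and 87.3 CPM, and Ddx58 (RIG-I) from 48.0 and 47.0 to 126 and 136 CPM. Tmem173, which encodes STING itself, stood at 75.6 and 73.8 against 105 and 86.0 CPM (0.34 ± 0.13, adjusted p = 0.12) and was not called. Mb21d1, which encodes the cGAMP synthase cGAS, was at 8.93 and 7.29 against 9.19 and 7.10 CPM (adjusted p = 0.997). Tbk1 moved by 0.40 ± 0.10, a call that was lost without any one of the 4 spontaneous libraries, with an adjusted p of up to 0.145 without PBS replicate 2.

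Of 12 tested IRF and STAT genes 6 rose and 0 fell, with a median of 0.52. Irf7, which amplifies interferon production, rose from 20.4 and 26.2 to 1392 and 1389 CPM (log2 difference 5.85 ± 0.18, adjusted p = 4.9e-08). Stat2, which the interferon receptor activates, rose from 25.4 and 24.5 to 126 and 121 CPM, and Irf9, its DNA-binding partner, from 35.2 and 37.3 to 114 and 126 CPM. Irf1 rose from 88.1 and 94.6 to 174 and 190.4 CPM. Irf8 moved by 1.03 ± 0.26, lost without any one of the 4 libraries (adjusted p up to 0.172, without cGAMP replicate 1). Irf3, which acts by phosphorylation, was at 47.4 and 44.2 against 36.9 and 35.9 CPM (adjusted p = 0.11) and was not called.

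The receptors and kinases upstream of these factors were not called. In the list of interferon and TNF receptors with Janus kinases 0 of 11 genes passed the test in limma, 1 had an unadjusted p under 0.05, and their log2 differences ran from -0.28 to 0.37. The gene with the largest difference, Ifnar2, a chain of the type I interferon receptor, was at 109 and 101 against 135 and 135 CPM (adjusted p = 0.053), and was called with median-of-ratios scaling. Of the feedback inhibitors, 3 of 12 rose, and 6 were called higher with median-of-ratios scaling. Socs1, a suppressor of Janus kinases, rose from 9.20 and 11.01 to 39.5 and 42.1 CPM in a call that held without any of the 4 libraries. In the list of NF-kB subunits and TNF adaptors 0 of 11 genes were called in limma, 2 had an unadjusted p under 0.05, and the median was 0.06. Rela and Nfkb1, which encode p65 and p105, stood at 54.8 and 59.3 against 56.1 and 52.0 CPM and at 126 and 131 against 120.0 and 122 CPM. With median-of-ratios scaling 1 gene of that list, Nfkb2, was called higher.

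Genes of MHC class I presentation rose throughout the list. All 19 tested genes were called higher, with a median of 2.24, and 18 of the calls held without any of the 4 libraries. The genes of the class I heavy chains were abundant to begin with. H2-D1 rose from 3111 and 3047 to 11456 and 11712 CPM, H2-K1 from 969 and 988 to 4490 and 4493 CPM, and B2m, the shared light chain, from 977 and 1192 to 5149 and 5039 CPM. Together the 19 genes took 0.635% and 0.650% of the UMIs of an average EC after PBS and 2.66% and 2.69% after cGAMP. The peptide transporter gene Tap1 rose from 31.9 and 27.6 to 241 and 245 CPM, and the immunoproteasome subunit genes Psmb8 and Psmb9 by 2.44 ± 0.12 and 2.45 ± 0.12. Nlrc5, the transactivator of class I genes, went from 2.03 and 1.08 to 24.9 and 32.4 CPM. H2-Q6 and H2-Q7 are near-identical copies, and their separate values of 2.91 ± 0.15 and 3.34 ± 0.15 are uncertain.

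MHC class II genes also rose, from a much lower level. Of 7 tested genes 6 rose and 0 fell, with a median of 2.99. Cd74, the invariant chain, went from 12.01 and 20.5 to 226 and 231 CPM, H2-Aa from 3.18 and 1.57 to 45.2 and 56.0 CPM, and the transactivator Ciita from 0.773 and 0.277 to 10.6 and 8.78 CPM. The summed level of immune cell markers in the same ECs was 11.4 and 12.9 against 17.5 and 28.0 CPM. Ptprc, the leukocyte gene of CD45, had a UMI in 0.336% and 0.183% against 0.391% and 1.40% of ECs, and the part of such cells in the class II levels was not tested separately. Checkpoint genes rose in 3 of 5 tested cases. Cd274, the gene of PD-L1, which inhibits T cells, rose from 3.97 and 5.03 to 67.2 and 69.5 CPM (3.66 ± 0.28, adjusted p = 1.1e-05). Lgals9, the gene of galectin 9, rose from 101 and 120.4 to 479 and 446 CPM, and Cd47, a signal against phagocytosis, from 360.5 and 381 to 661 and 589 CPM.

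Among secreted proteins, chemokines showed the largest single changes. Of 12 tested chemokine genes 7 rose and 0 fell, with a median of 1.47, and 4 of the calls held without any of the 4 libraries. Ccl5 (chr11:83525778-83530518), which attracts T cells and monocytes, had 8 and 2 UMIs in all ECs of the PBS libraries and 14836 and 12245 in those of the cGAMP libraries. In CPM this was 1.33 and 0.266 against 1861 and 1232 (log2 difference 9.78 ± 0.39, adjusted p = 2.5e-07), a difference whose size depends on the added 1 CPM because the PBS level is so low. Cxcl9 and Cxcl10, ligands of CXCR3 on activated T cells, rose from 30.7 and 17.0 to 1627 and 1434 CPM and from 22.2 and 11.3 to 487 and 463 CPM. Ccl2, a monocyte attractant, rose in both mice but unequally, from 8.41 and 9.34 to 175 and 62.6 CPM (3.43 ± 0.40, adjusted p = 3.2e-04).

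Cx3cl1, Cxcl16 and Ccl7 were the other chemokine genes called. Cx3cl1 moved by 1.38 ± 0.28, lost without PBS replicate 2 or cGAMP replicate 1 (adjusted p up to 0.0999). Cxcl16 and Ccl7 moved by 0.91 ± 0.26 and 2.44 ± 0.64, and both were lost without any one of the 4 libraries, with adjusted p of up to 0.254 and 0.171. Cxcl12, which retains leukocytes and guides vessel growth, was at 602 and 681 against 502 and 544 CPM (adjusted p = 0.36). Of 8 tested cytokine and TNF family genes 3 rose. Tnfsf10, the gene of the death ligand TRAIL, rose from 45.6 and 52.7 to 139 and 139.8 CPM in a call that held without any of the 4 libraries. Il15, a cytokine for NK and memory T cells, moved by 1.23 ± 0.24, lost without PBS replicate 1 or cGAMP replicate 1 (adjusted p up to 0.0881), and Csf1 by 0.78 ± 0.19, lost without PBS replicate 1, cGAMP replicate 1 or cGAMP replicate 2 (up to 0.174). Tnf was at 2.55 and 4.38 against 3.69 and 3.12 CPM and Il6 at 18.1 and 18.7 against 34.9 and 24.4 CPM, and neither was called (adjusted p = 0.99 and 0.086).

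**Figure D3:**
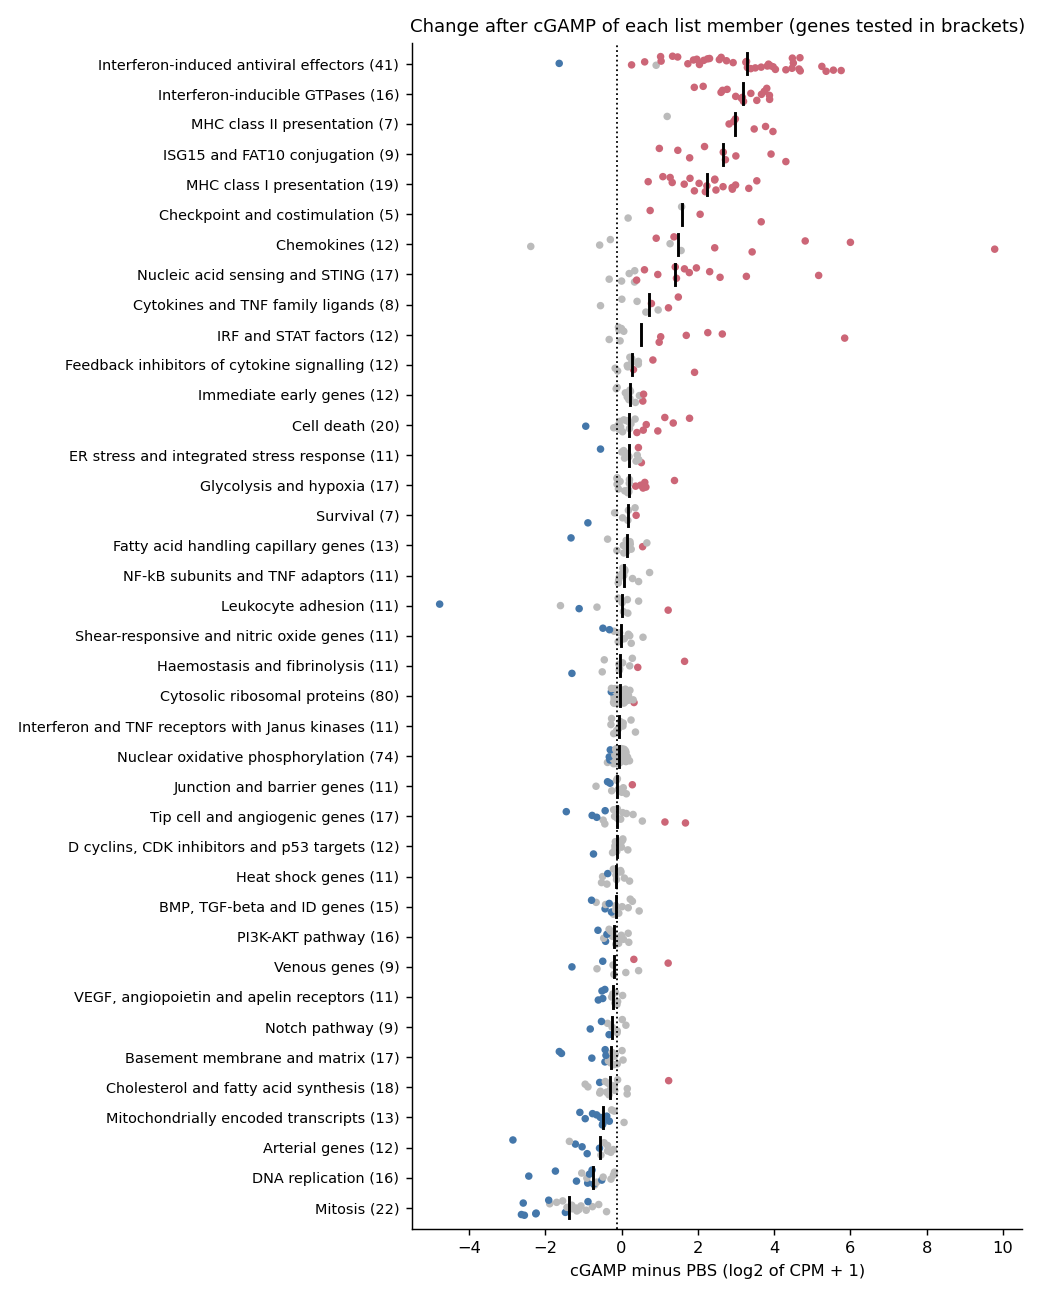
Log2 differences cGAMP minus PBS of the tested members of each gene list, red for genes called higher, blue for lower and grey for not called, with the list median as a bar and the median of all genes as a dotted line. The antiviral, GTPase and MHC lists lie above 0, and the mitosis list lies below it with a median of -1.37.

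Genes of cell death moved in part. Of 20 tested genes 7 rose and 1 fell, with a median of 0.21, and 4 of the calls held without any of the 4 libraries. Mlkl, which forms pores in necroptosis, rose from 15.1 and 15.7 to 57.2 and 53.9 CPM (1.78 ± 0.12, adjusted p = 6.1e-06). Gsdmd, the pore protein of pyroptosis, rose from 27.6 and 23.8 to 61.1 and 54.1 CPM, and Casp4, which cleaves it, from 33.4 and 35.6 to 93.3 and 86.5 CPM. Fas, the death receptor, fell from 32.3 and 39.8 to 19.5 and 17.1 CPM (-0.94 ± 0.16, adjusted p = 0.0043). Other rises were small. Casp8, Bak1, Bid and Casp1 moved by 0.40 to 0.95. The call of Casp8 was lost without PBS replicate 1, cGAMP replicate 1 or cGAMP replicate 2 (adjusted p up to 0.0715) and that of Bak1 without PBS replicate 2, cGAMP replicate 1 or cGAMP replicate 2 (up to 0.177). Those of Bid and Casp1 were lost without any one of the 4 libraries (up to 0.216 in each). Of the survival genes, Bcl2, which holds back the mitochondrial route of apoptosis, fell from 50.9 and 60.3 to 31.5 and 27.9 CPM (-0.88 ± 0.15, adjusted p = 0.0043). Cflar, an inhibitor of caspase 8, moved by 0.38 ± 0.09, lost without PBS replicate 1, PBS replicate 2 or cGAMP replicate 1 (up to 0.146). In the PI3K-AKT list 3 of 16 genes fell and 0 rose. Insr, the insulin receptor, fell from 333 and 383 to 225 and 241 CPM and held without any of the 4 libraries. The calls of Pik3ca and Rictor were lost with median-of-ratios scaling, and also without any one of the 4 libraries (adjusted p up to 0.204 and 0.133).

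Few genes of leukocyte adhesion and haemostasis were called. In the list of leukocyte adhesion genes 1 of 11 rose and 2 fell, with a median of 0.02, and none of the 3 calls held without each library. Over all genes tested 4.77% were called higher and 7.57% lower, so such small counts say little about a short list. Vcam1, a ligand for leukocyte integrins, moved from 45.6 and 55.4 to 133 and 106 CPM, a call lost without PBS replicate 1 or cGAMP replicate 1 (adjusted p up to 0.0917). Sele, E-selectin, went from 40.8 and 34.2 to 17.5 and 16.1 CPM, lost without any one of the 4 libraries (up to 0.118). Icam1 was at 121 and 115 against 138 and 127 CPM and was not called. In the haemostasis list 2 of 11 rose and 1 fell. Vwf, the platelet-binding von Willebrand factor, went from 274 and 232 to 91.9 and 113 CPM (-1.30 ± 0.22), lost without cGAMP replicate 1 (0.0564). Procr moved by 0.43 ± 0.09, lost without any one of the 4 libraries (up to 0.0697). Glycolysis and hypoxia genes rose in 6 of 17 cases, with a median of 0.19. Pfkfb3, a driver of glycolysis in ECs, rose from 21.3 and 20.2 to 55.8 and 56.1 CPM, and Aldoa from 368 and 371 to 578 and 518 CPM.

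Glycam1 showed the largest fall of all genes tested, but in few cells. This sulphated ligand of L-selectin is made by high endothelial venules. Its level was 475 and 533 CPM after PBS and 18.4 and 16.6 CPM after cGAMP (-4.77 ± 0.92, adjusted p = 0.0083), and the call was lost without any one of the 4 libraries (adjusted p up to 0.0653). In the PBS libraries 60 and 26 ECs had a UMI of it, and the 10 ECs with the most held 99.5% and 99.8% of its UMIs. In the cGAMP libraries 9 and 8 ECs had a UMI. In cells outside the EC rule Glycam1 was at 60.1 and 0.823 CPM after PBS and at 35.2 and 69.5 CPM after cGAMP. The source of its RNA was not tested. Chga, which encodes a granule protein of neuroendocrine cells, was the reverse case, with no UMI after PBS and 62 and 404 UMIs in 6 and 23 ECs after cGAMP. Its call was lost without PBS replicate 1, PBS replicate 2 or cGAMP replicate 2 (up to 0.179). Both values rest on a small number of cells per mouse.

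Matrix and arterial genes were among the other genes that fell. Eln, the gene of elastin, fell from 154 and 138 to 50.8 and 42.3 CPM (-1.63 ± 0.11, adjusted p = 6.6e-06). Fn1, the gene of fibronectin, fell from 93.3 and 114 to 43.3 and 26.5 CPM, and Lamb2, a laminin chain, from 80.3 and 83.4 to 43.0 and 52.0 CPM. These 3 genes were the members of a list of 17 basement membrane and matrix genes whose calls held without any of the 4 libraries, out of 6 that were called lower, and the list had a median of -0.29. With median-of-ratios scaling 4 of the 6 were called, and the median was -0.17. Of 12 arterial genes 5 fell and 0 rose, with a median of -0.56, and 3 of these calls held without any of the libraries. With median-of-ratios scaling the calls of Fbln5 and Bmx were lost. The 3 that held were Cytl1, from 68.8 and 69.3 to 5.93 and 12.7 CPM, the connexin gene Gja5, from 57.5 and 46.6 to 27.6 and 26.9 CPM, and Stmn2, from 306 and 221 to 115 and 109 CPM. UMIs of Cytl1 lay in few ECs, in 4.47% and 3.11% of ECs after PBS and 1.37% and 1.40% after cGAMP. Ptn, a heparin-binding growth factor, fell from 406 and 381 to 142 and 145 CPM (-1.45 ± 0.08, adjusted p = 7.0e-07).

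Receptor and Notch genes fell by less. In the list of VEGF, angiopoietin and apelin receptors 4 of 11 fell, and 3 with median-of-ratios scaling. Calcrl, the adrenomedullin receptor, fell by 0.51 on the log2 scale and Nrp2, a co-receptor of VEGF-C, by 0.49, both in calls that held without any of the 4 libraries. Kdr, the main VEGF receptor, was at 618 and 788 against 653 and 632 CPM and was not called. In the Notch list 3 of 9 genes fell. Nrarp, a Notch target, fell from 170.3 and 167 to 117 and 117 CPM, held without any of the 4 libraries. Jag1, a Notch ligand, moved by -0.82 ± 0.16, lost without PBS replicate 1 or cGAMP replicate 1 (adjusted p up to 0.0775), and Notch1 by -0.33 ± 0.08, lost without any one of the 4 libraries (up to 0.143) and with median-of-ratios scaling. Tip cell genes were mixed, with 2 of 17 higher and 4 lower, and with median-of-ratios scaling 3 were called higher and 1 lower. Pgf, a VEGF family ligand, moved from 18.3 and 9.32 to 68.3 and 28.3 CPM (1.68 ± 0.42), lost without PBS replicate 2 or cGAMP replicate 1 (up to 0.194), and Adm, adrenomedullin, by 1.14 ± 0.26, lost without PBS replicate 1 or cGAMP replicate 1 (up to 0.149). Junction genes were mostly not called, with 1 of 11 higher and 2 lower, both lower calls being lost with median-of-ratios scaling, and Cdh5, the gene of VE-cadherin, was at 1076 and 1171 against 1226 and 1224 CPM.

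Cell cycle genes were lower after cGAMP. Of 22 mitosis genes 8 fell and 0 rose, with a median of -1.37, and of 16 replication genes 8 fell, with a median of -0.75. With median-of-ratios scaling 7 genes of each list were called lower. Calls of 2 genes in each list held without any of the 4 libraries. Top2a, which untangles chromosomes before division, fell from 29.2 and 28.2 to 3.11 and 5.29 CPM (-2.55 ± 0.33, adjusted p = 6.8e-04). Prc1, which bundles spindle microtubules, fell from 16.4 and 12.4 to 1.15 and 2.05 CPM, and Rrm2, for nucleotide synthesis, from 13.7 and 12.2 to 1.14 and 2.12 CPM. Mki67 went from 20.5 and 23.6 to 1.85 and 3.89 CPM, a call lost without PBS replicate 1, PBS replicate 2 or cGAMP replicate 1 (adjusted p up to 0.113). ECs with UMIs of at least 3 of 8 mitosis markers numbered 46 and 18 after PBS and 6 and 8 after cGAMP, which is 5.15% and 3.29% against 1.17% and 1.40% of ECs. Without these cells 0 mitosis genes were called in limma, with 2 at an unadjusted p under 0.05 and a median of -0.51 among those still tested. Aurka and Aurkb, for example, were not tested in that run. The cells were chosen on mitosis genes, so leaving them out lowers such transcripts by construction, and the lost calls are a description. In the same run 3 replication genes were called lower.

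Several further genes with large falls belonged to none of these groups. Sox11, a developmental transcription factor, fell from 10.4 and 19.0 to 2.90 and 1.63 CPM, and 59 and 47 ECs had a UMI of it after PBS and 17 and 11 after cGAMP. S100a4, a calcium-binding protein of motile cells, fell from 56.7 and 38.5 to 12.3 and 13.3 CPM (-1.79 ± 0.23), and Sdc1, the proteoglycan syndecan 1, from 26.3 and 20.4 to 5.77 and 6.40 CPM. The calls of these 3 genes held without any of the 4 libraries. Cpe, a peptidase of prohormones, went from 29.1 and 40.5 to 11.9 and 6.15 CPM, a call lost without PBS replicate 1, PBS replicate 2 or cGAMP replicate 2 (adjusted p up to 0.152). Stress and lipid synthesis lists held few calls. Heat shock genes had a median of -0.15 with 1 of 11 lower, immediate early genes 0.22 with 2 of 12 higher, genes of ER stress and the integrated stress response 0.20 with 2 of 11 higher and 1 lower, and genes of cholesterol and fatty acid synthesis -0.31 with 1 of 18 higher and 1 lower. With median-of-ratios scaling the heat shock call and the lower call of the ER stress list were lost, and 3 immediate early genes and 4 of the ER stress list were called higher. The cholesterol list gene that rose was Ch25h, which makes an antiviral oxysterol, from 9.76 and 10.7 to 23.6 and 27.5 CPM (1.24 ± 0.18, adjusted p = 0.0014).

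The remaining vascular lists also held few calls. Of 9 venous genes 2 rose and 2 fell, of 13 genes of fatty acid handling in capillaries 1 rose and 1 fell, and of 11 shear-responsive and nitric oxide genes 2 fell, of which median-of-ratios scaling kept 1. In the BMP, TGF-beta and ID list 4 of 15 fell with a median of -0.15, and with median-of-ratios scaling 2 fell and 1 rose. Of 12 D cyclins, CDK inhibitors and p53 targets 1 fell, namely Ccnd1, the gene of cyclin D1, from 255 and 240.0 to 159.6 and 138 CPM, a call lost without PBS replicate 1 or cGAMP replicate 2 (adjusted p up to 0.0625). Of 17 tested histone genes 2 rose and 2 fell, and the 3' chemistry reads polyadenylated RNA, which canonical histone mRNA mostly lacks.

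Mitochondrially encoded transcripts were lower in 10 of 13 cases, with a median of -0.49 (7 of 13 with median-of-ratios scaling). They made up a median of 4.46% and 4.47% of the UMIs of an EC after PBS and 3.04% and 3.18% after cGAMP. The members did not move alike. mt-Nd4l fell from 253 and 247 to 110.3 and 124 CPM and mt-Cytb from 4260.3 and 4629 to 2114 and 2493 CPM, in calls that held without any of the 4 libraries, whereas mt-Co1 was at 6539 and 6697 against 6885 and 6973 CPM and was not called. The nuclear genes of oxidative phosphorylation had a median of -0.07, with 3 of 74 lower and 0 higher, and no call with median-of-ratios scaling. Cytosolic ribosomal protein genes had a median of -0.05, with 1 of 80 higher and 2 lower, and with median-of-ratios scaling 5 higher and 0 lower. The percentage of mitochondrial UMIs was one of the criteria of the deposited cell filter, set at 10%.

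Antiviral transcripts were more numerous in most ECs of the cGAMP libraries. To compare cells of unequal depth, each EC was thinned to 2000 UMIs, and ECs with fewer were left out, which kept 797, 500, 491 and 523 ECs. The 41 antiviral genes then had a median of 10 and 11 UMIs per EC after PBS and 41 and 40 after cGAMP. The middle 90% of ECs ran from 4 to 21 and 4 to 22 UMIs after PBS and from 20.5 to 77 and 22 to 73.9 after cGAMP. Above the 95th percentile of the PBS ECs, which was 21 UMIs, lay 461 of 491 (93.9%) and 500 of 523 (95.6%) cGAMP ECs. The genes called at least 2-fold higher took on average 1.63% and 1.64% of the UMIs of an EC after PBS and 7.49% and 7.34% after cGAMP. Since those genes were chosen on the same libraries, these shares describe the response and do not test it.

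**Figure D4:**
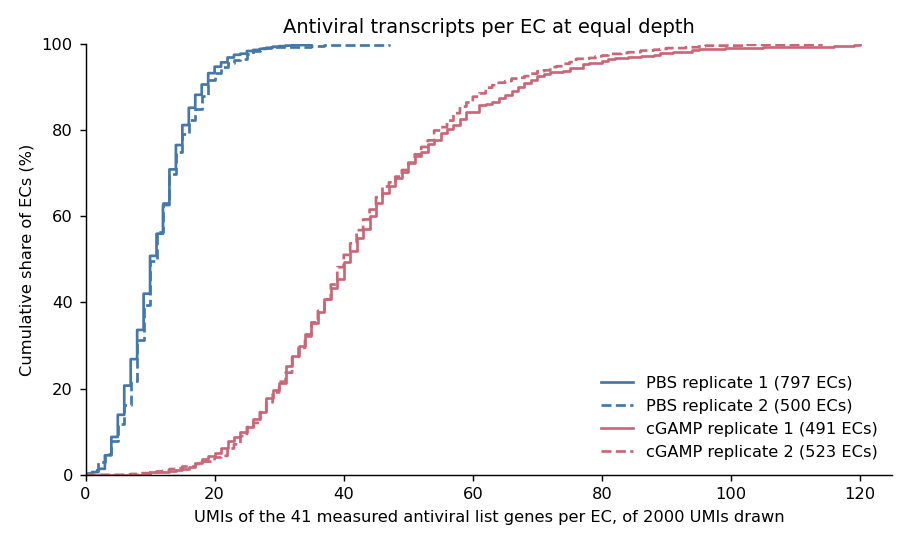
Cumulative share of ECs in percent against the number of UMIs of the antiviral list per EC after thinning to 2000 UMIs, with 1 line per spontaneous library. The medians of 10 and 11 after PBS and 41 and 40 after cGAMP are separated, with overlap near 21 UMIs.

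Single genes differed in how many ECs held them. After thinning, Irf7 had a UMI in 3.89% (95% Wilson interval 2.75% to 5.47%) and 4.2% (2.76% to 6.34%) of PBS ECs and in 85.7% (82.4% to 88.6%) and 87.6% (84.5% to 90.1%) of cGAMP ECs. Isg15 went from 10% and 12% to 80.4% and 83.2%. Chemokine UMIs lay in fewer ECs. Ccl5, at 1861 and 1232 CPM after cGAMP beside 1392 and 1389 CPM of Irf7, had a UMI in 0.251% and 0.2% of PBS ECs and in 29.1% (25.3% to 33.3%) and 25.05% (21.5% to 28.9%) of cGAMP ECs. Cxcl9 was found in 53.4% and 54.1% and Cxcl10 in 24.8% and 22.9% of cGAMP ECs. Without thinning, the shares after cGAMP were 97.3% and 96.3% for Irf7 and 51.1% and 47.8% for Ccl5. Among lowered genes, Ifi27 was found in 33.6% and 33.4% of PBS ECs and in 11.8% and 11.1% of cGAMP ECs, and Ptn in 18.8% and 19.2% against 7.74% and 10.1%. Intervals cover counting error only, and 2 against 2 libraries cannot give an exact permutation p below 0.333, which was the two-sided value for each of these genes.

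The raised genes were also found in cells that did not meet the EC rule. These cells numbered 146 and 127 after PBS and 230 and 210 after cGAMP and included Pecam1 cells with UMIs of at least 2 of the 6 other genes. After thinning, Irf7 had a UMI in 4.55% and 6.52% of these cells after PBS and in 87.6% and 86.5% after cGAMP, and Ccl5 in 1.14% and 0% against 29.9% and 26.4%. The median depth of these cells was 3367 and 8479 UMIs after PBS and 12552 and 12556 after cGAMP. The part of RNA from other cells in the chemokine UMIs of ECs was not tested.

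EC subsets were set by at least 3 markers of a fixed list each, and a cell could belong to several. Irf7 after cGAMP lay between 1297 and 1701 CPM in each library of the arterial, tip, vein, capillary and lymphatic marker subsets. Its level after PBS in those subsets was 13.6 to 70.7 CPM. Ccl5 was less even. It stood at 937 and 731 CPM in ECs with capillary markers, at 934 and 1390 in those with arterial markers, at 1670 and 1171 with vein markers, at 5072 and 2633 with tip markers and at 2979 and 4609 with lymphatic markers. The tip subset held 98 and 90 ECs and the lymphatic subset 26 and 18. ECs with tip markers made up 7.72% and 12.2% of ECs after PBS and 19.2% and 15.8% after cGAMP, but Pgf, Adm and Angpt2 are among the markers, so this share was not compared. The subsets differed in depth, with medians of 17599 and 18586 UMIs for tip and 12332 and 14316 for capillary markers after cGAMP.

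Several lowered genes were also lower within the subsets that held them. Eln in ECs with arterial markers was at 336 and 241 CPM after PBS and at 79.5 and 55.5 CPM after cGAMP, and in those with tip markers, where it was low, at 4.30 and 6.28 against 5.29 and 3.06 CPM. Cytl1 in ECs with arterial markers was at 177 and 121 against 19.1 and 31.9 CPM. Ptn was highest in the tip subset after PBS, at 974 and 767 CPM, and stood there at 89.1 and 184 CPM after cGAMP. Glycam1 in ECs with vein markers was at 866 and 787 against 1.90 and 26.7 CPM. The arterial subset made up 31.9% and 30.3% of ECs after PBS and 30.3% and 33.3% after cGAMP. Gja5, Fbln5, Bmx and Stmn2, called lower after cGAMP, are among its markers, so this share was not compared. The subsets were chosen on genes of the same cells, so these values are a description.

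**Figure D5:**
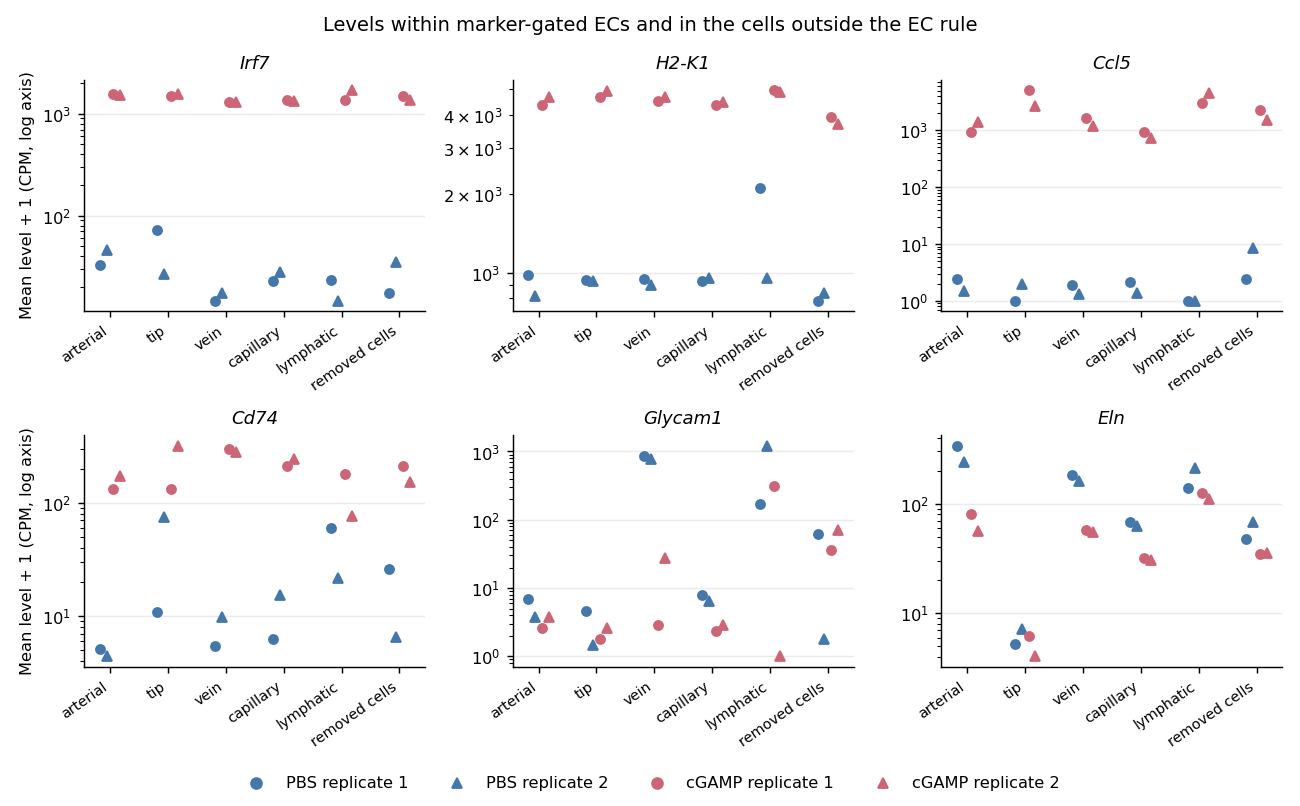
Mean level plus 1, in CPM on a log axis, of 6 genes by EC marker subset and in the cells outside the EC rule, with 1 point per spontaneous library. Irf7 after cGAMP lies between 1297 and 1701 CPM in 5 subsets, whereas Ccl5 ranges from 731 in capillary to 5072 in tip subsets.

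ECs of implanted tumours gave the background for which of these responses were larger here. The difference of the 2 responses was called for 82 of 10335 genes (0.793%), with 57 more negative and 25 more positive in implanted tumours. Of the 57, 45 were genes called higher by cGAMP in spontaneous tumours. The count was small without single libraries, with 10 genes without spontaneous PBS replicate 1, 9 without PBS replicate 2, 13 without cGAMP replicate 1 and 2 without cGAMP replicate 2. Without implanted PBS replicate 1 it was 40, and without implanted cGAMP replicate 2 it was 127. Implanted cGAMP replicate 1 stood apart, with a median of 2776 UMIs per EC and 537 ECs under 2000 UMIs, and without it 71 genes were called.

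In 45 of the 45 genes with the larger rise in spontaneous ECs, both PBS libraries of implanted tumours lay above both PBS libraries of spontaneous tumours. The same libraries enter the difference of responses, and a higher PBS level in implanted tumours makes it more negative by construction. The share of all genes tested with that order was not computed, so the count is a description. Cxcl9 was at 1774 and 823 CPM in PBS ECs of implanted tumours, against 30.7 and 17.0 in spontaneous ones, and reached 2967 and 3694 CPM there after cGAMP (difference of responses -4.55 ± 0.46, adjusted p = 0.0050), a call lost without spontaneous cGAMP replicate 2 (0.0848). Cd74 was at 584 and 251 CPM after PBS and 675 and 459 after cGAMP in implanted ECs (-3.24 ± 0.49, adjusted p = 0.021), lost without any one of the 4 spontaneous libraries (up to 0.145). Ifi27l2a was at 172 and 147 against 726 and 899 CPM there (-2.17 ± 0.18, adjusted p = 0.0016), a call that held without any of the 8 libraries. By list the difference was called for 11 of 16 GTPases, 10 of 41 antiviral genes, 8 of 19 MHC class I and 6 of 7 MHC class II genes. Of those class II genes 5 were negative, and Ctss, which encodes the protease cathepsin S, was positive at 2.83. Angpt2, an antagonist of the Tie2 receptor, showed the opposite order. It was at 69.6 and 86.9 against 123 and 106 CPM in spontaneous ECs, where it was not called (0.55 ± 0.18, adjusted p = 0.071), and at 64.5 and 42.0 against 306 and 324 CPM in implanted ECs (difference 2.03 ± 0.25, adjusted p = 0.013), lost without spontaneous PBS replicate 2 or either spontaneous cGAMP library (up to 0.116). Ctgf, a matrix-associated growth factor, differed by 1.25 ± 0.17, lost without any one of the 4 spontaneous libraries (up to 0.116), and was lower after cGAMP in spontaneous ECs, at 163 and 179.5 against 101 and 109.8 CPM, a call lost without cGAMP replicate 1 (0.0517).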

How the data were processed

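The authors made 8 single-cell 3′ RNA libraries (10x Chromium v3 chemistry) of sorted tumour ECs. Per the labels and methods, reads were processed with Cell Ranger 3.0.0 and build mm10, and Seurat 3.1.1 dropped cells with fewer than 500 genes or over 10% mitochondrial UMIs and genes in fewer than 3 cells. The gene annotation is not given in the sources used here. The deposited values are natural log values, ln(1 + 10000 × UMIs / total UMIs of the cell), from which whole UMIs were recovered for 100% of values within 0.01. No doublet step is stated, and none was added.

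Here ECs were picked by the 7-gene rule, values were returned to the linear scale, and library means in CPM entered limma 3.58.1 (R 4.3.3, eBayes with trend) as log2(CPM + 1), after removal of genes that reached 5 CPM in fewer than 2 of the 8 libraries. The 4 residual degrees of freedom rose to 10.1 with the shared prior. The fit was also run on simulated data with known changes, with the same spread for every gene and added counting noise. Such data are simpler than the real libraries, so that run checks the code and not the calls. Python 3.11.15 and scipy 1.17.1 were used for the rest. The genes named are the 15 called genes that rose furthest and the 15 that fell furthest, given 10 CPM or more in the higher group, no overlap between groups and a standard symbol, the 10 with the strongest difference between the tumour models, and members of 47 gene lists. The members and lists were chosen with earlier results of these data known. Replicates within a group differed beyond counting noise (chi-square per degree of freedom 3.6 to 11.0), so no library was taken as a duplicate. Spontaneous libraries shared 1 cell barcode. The replicate numbers only name libraries: the deviations of same-numbered spontaneous libraries correlated at -0.16 across genes. Leaving out each library, other scalings, filters, pseudocounts, cell rules and a replicate block were tried. Some genes are not reported here.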

Additional observations from a re-analysis of the deposited data

Results flagged for a closer look

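The response to cGAMP differed between spontaneous and implanted tumour ECs, by the test of the difference itself, for 44 of the named and listed genes. Values are the log2 response in implanted minus that in spontaneous ECs, and 40 were negative. Among chemokine and antiviral genes, the log2 difference of responses was Cxcl9 -4.55, Ifit3 -2.09, Ifit1 -1.62, Ifi27l2a -2.17, Oasl2 -1.40, Rtp4 -1.24, Slfn2 -1.20, Parp9 -1.14, Parp12 -1.20, Xaf1 -0.96 and Ifitm3 -0.71. Among interferon-inducible GTPases it was Gbp2 -2.83, Gbp3 -1.85, Gbp5 -2.43, Gbp7 -1.45, Gbp9 -1.02, Iigp1 -2.49, Igtp -2.58, Irgm1 -1.99, Irgm2 -2.28, Ifi47 -2.04 and Tgtp2 -2.22. Among sensing, conjugation and transcription factor genes it was Zbp1 -2.77, Ubd -3.59, Irf7 -1.76 and Irf9 -0.92. For MHC class I presentation it was H2-K1 -0.91, H2-Q6 -1.24, H2-Q7 -1.51, Tap1 -1.80, Psmb8 -1.25, Psmb9 -1.43, Psmb10 -0.84 and Nlrc5 -2.49. For 5 genes of MHC class II presentation it was Cd74 -3.24, H2-Aa -3.43, H2-Ab1 -2.88, H2-DMa -2.87 and Ciita -3.06. Cd34, a sialomucin of vessels, differed by -0.54. The 4 positive differences were Ccl20 7.45, Ctss 2.83 (also of the class II list), Angpt2 2.03 and Ctgf 1.25. Ccl20 had no UMI in either PBS library of implanted tumours and 16.4 and 63.7 CPM after cGAMP. In spontaneous ECs it stood at 3.62 and 30.9 against 4.43 and 0 CPM and was not called. The size of its difference depends on the added 1 CPM, because several of these values are 0. Its call was lost without any one library other than implanted cGAMP replicate 1. The call of Ctss was lost without any one library other than spontaneous PBS replicate 1. Without implanted cGAMP replicate 1, the shallowest library, 30 of the 44 differences were still called. Without spontaneous PBS replicate 1 or PBS replicate 2 it was 7 each, without spontaneous cGAMP replicate 1 it was 5 and without cGAMP replicate 2 it was 1. Without implanted PBS replicate 1, PBS replicate 2 or cGAMP replicate 2 it was 28, 42 and 33, and without the filter on low values 0 in limma, where 1892 of all genes had an unadjusted p under 0.05.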

How the results depend on the processing

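Of 233 called genes among those named or listed, the calls kept their direction in every alternative run with 1 exception, Abcc9, a mural gene, which stood at -0.45 among ECs and at 0.14 among all cells with Pecam1, where it was not called. The count of 1275 genes became 785 without the filter on low values, 2942 with UMIs summed per library and 783 without the trend in eBayes, and it stayed within 1.5 times in the other alternatives that kept every library, for example 891 among ECs with none of the 6 genes of other cells. Leaving out 1 library at a time gave 516 to 1693. For the difference of responses, 82 genes became 0 in limma without the filter, with 1892 genes at an unadjusted p under 0.05, and leaving out 1 library gave 2 to 127. A lone library in a group was assumed to vary like the other groups. A replicate block gave 1300 and 82 genes, and with the numbers of the spontaneous cGAMP libraries crossed 1223 and 87. Of the 233 calls, 23 were lost with median-of-ratios scaling, 61 without the filter, 61 without the trend and 53 to 81 without a spontaneous library, and the cause was not tested. With 2 mice per group the precision was limited by the number of libraries, and mice, libraries and sorts cannot be told apart.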
